A study of Mus musculus with 19 samples.

Results

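Genes of central nervous system glia were followed in RNA from dorsal root ganglia of mice. These ganglia hold the cell bodies of sensory neurons and lie beside the spinal cord, outside the central nervous system. They were 8 of the 36682 genes in the deposited table of counts and FPKM, a level per gene length and sequencing depth, taken by gene name. Of these, 5 are genes of oligodendrocytes (Mog, Mobp, Opalin, Olig1 and Olig2) and 3 are genes of astrocytes (Aqp4, Gfap and Slc6a11). All 8 passed the filter on low counts and were tested in every comparison.

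The libraries came from male mice homozygous for the MaFIA transgene (macrophage Fas-induced apoptosis), in which a Csf1r promoter drives a Fas construct that the dimerizing drug AP20187 activates, so that cells of the macrophage lineage die. All 4 groups carried the transgene. Mice had destabilization of the medial meniscus (DMM), a knee surgery that leads to osteoarthritis, or were age-matched naive mice with no surgery, and no sham-operated group was analysed here. AP20187 or vehicle was injected into the peritoneum daily for 5 days, in DMM mice 8 weeks after surgery. Ganglia L3 to L5, in DMM mice those of the operated side, were pooled and sequenced as stranded poly(A) libraries. The side taken in naive mice is not given in the sources used here. There were 5 libraries of DMM with AP20187 (numbers 58 to 62), 5 of DMM with vehicle (32, 33, 34, 63 and 64), 4 of naive with AP20187 (1, 3, 4 and 5) and 5 of naive with vehicle (1 to 5). The labels give each library a sample number and do not say how samples relate to mice, so p-values measure the spread between these samples.

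Oligodendrocytes make the myelin of the brain and spinal cord, and astrocytes are their supporting glia. In the dorsal root ganglion these tasks fall to Schwann cells, which make peripheral myelin, and to satellite glia, which wrap the nerve cell bodies, while central glia are found along the dorsal root only near its entry into the spinal cord. Several myelin genes, such as Mbp and Mal, are used by both oligodendrocytes and Schwann cells, whereas Mog, Mobp and Opalin are regarded as genes of central myelin. Gfap is also known from non-myelinating Schwann cells and from satellite glia.

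The library totals ran from 60984830 to 74691396 counts. Levels below are CPM (the count scaled to library size after TMM normalization), and a level of 3 counts per library, the floor that a count of 0 allows, corresponded to 0.0445 to 0.0504 CPM. Among genes, the value 4 was more frequent than the mean of the values 3 and 5, by 1.93 to 2.07 times in naive AP20187 libraries 1, 3 and 4 and by 2.295 to 2.84 times in the other 16, so a count may not equal a fragment, and counting error can exceed what these counts give. Counts per unit of FPKM, relative to the median library, were 1.11, 1.11 and 1.08 in naive AP20187 libraries 1, 3 and 4 and between 0.994 and 1.01 in the other 16 libraries. Whether those 3 libraries were processed apart from the rest is not given in the sources used here. Sensory neuron genes were present in all libraries, with a summed level of 811.4 to 8114 CPM over 8 genes. Marker genes of granulocytes and marrow, which say how much marrow or blood lineage RNA a library held, summed to 6798 to 24880 CPM over 7 genes with AP20187 and to 334.1 to 6633 CPM with vehicle.

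For 6 of the 8 genes the RefSeq table of promoters (build GRCm38.p6) held an entry, and Olig1 and Aqp4 had none. The 250 bases before the start of Mog, Mobp and Slc6a11 are shown because the results turn on these genes: Mog and Slc6a11 were lower in naive mice given AP20187, and Mobp lay far above and far below its usual level in libraries of the same group. Capitals mark matches on either strand to the E-box CANNTG, the core bound by OLIG and other basic helix-loop-helix proteins, and to ACAAAG or ACAATG, cores bound by SOX proteins. Each sequence runs 5′ to 3′ on the strand of the gene.
Mog, chr17:37023399-37023648, minus strand: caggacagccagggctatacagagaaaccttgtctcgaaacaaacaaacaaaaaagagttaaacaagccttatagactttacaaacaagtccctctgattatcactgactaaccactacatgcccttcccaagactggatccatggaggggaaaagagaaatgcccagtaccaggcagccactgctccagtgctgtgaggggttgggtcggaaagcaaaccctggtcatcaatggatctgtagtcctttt
Mobp, chr9:120149492-120149741, plus strand: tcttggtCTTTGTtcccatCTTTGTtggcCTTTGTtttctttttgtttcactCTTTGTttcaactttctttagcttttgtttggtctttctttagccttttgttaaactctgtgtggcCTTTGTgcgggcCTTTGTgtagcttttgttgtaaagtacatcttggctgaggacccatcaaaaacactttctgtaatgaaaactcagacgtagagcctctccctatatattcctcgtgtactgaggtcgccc
Slc6a11, chr6:114130991-114131240, plus strand: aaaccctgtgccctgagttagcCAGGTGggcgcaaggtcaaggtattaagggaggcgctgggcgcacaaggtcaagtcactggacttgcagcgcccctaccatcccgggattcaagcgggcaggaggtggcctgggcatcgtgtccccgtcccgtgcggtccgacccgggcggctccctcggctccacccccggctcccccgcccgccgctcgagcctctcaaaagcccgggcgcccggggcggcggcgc

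The Mobp window held 6 matches to the SOX cores, in a stretch of repeated letters, and no E-box. The Slc6a11 window held 1 E-box, and the Mog window held neither. Of 32851 promoters with the same window, 66.2% held an E-box and 25.2% a SOX core, so these matches describe the letters and say nothing of binding.

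Per length, Mobp and the astrocyte genes stood above the other oligodendrocyte genes. By mean FPKM over all 19 libraries, Mobp stood highest at 3.16 ± 1.69 (SD), followed by Gfap at 2.24 ± 0.645, Aqp4 at 1.85 ± 0.672 and Slc6a11 at 1.23 ± 0.370. The other 4 were lower: Olig1 at 0.445 ± 0.187 FPKM, Mog at 0.382 ± 0.193, Opalin at 0.0899 ± 0.0429 and Olig2 at 0.0774 ± 0.0343. Neighbours in this order lay within the larger of their SDs of each other, except Slc6a11 and Olig1, and Mog and Opalin. The depth behind these levels was 412 to 3745 counts per library for Mobp, 0 to 90 for Mog, 10 to 109 for Olig1, 0 to 35 for Opalin and 0 to 23 for Olig2.

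**Figure D1:**
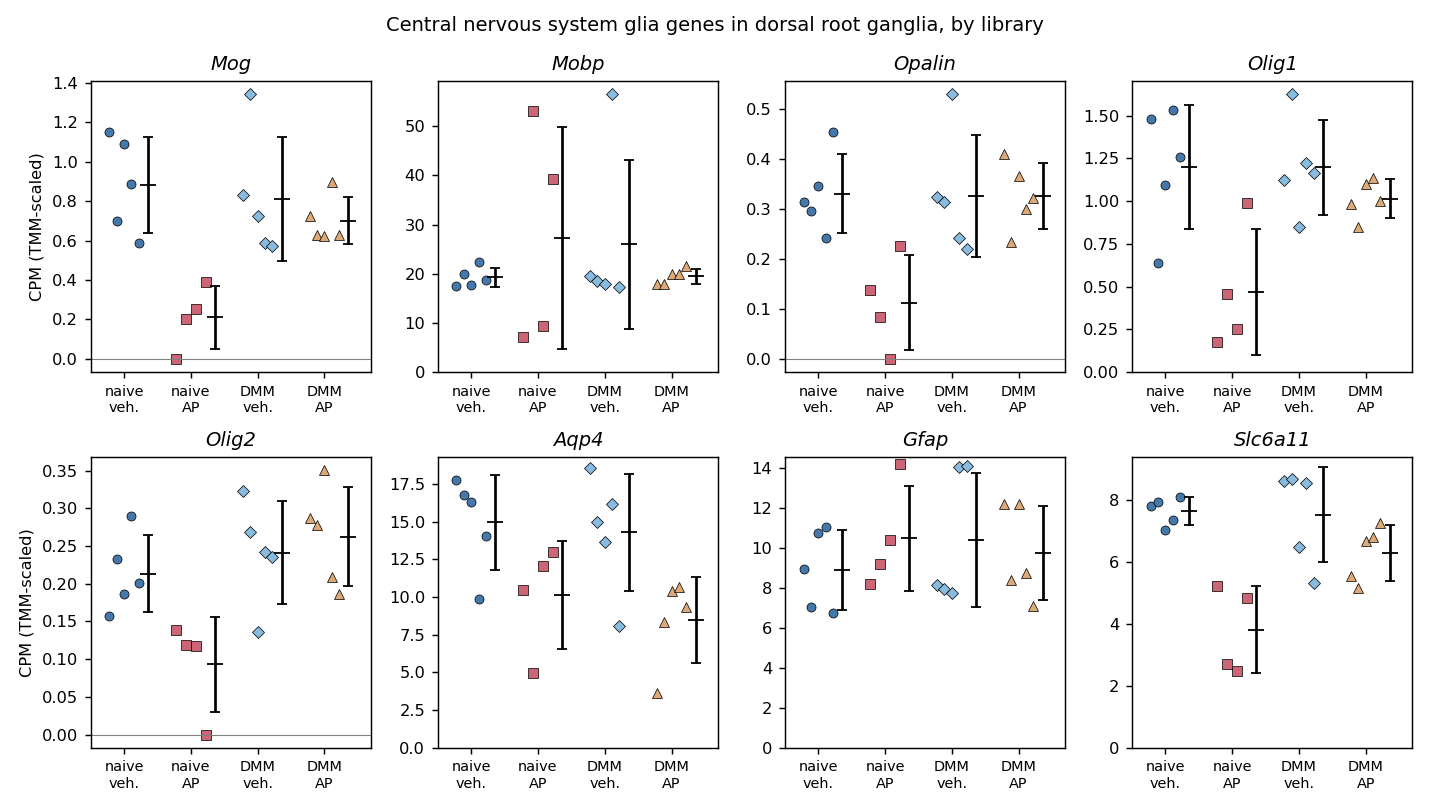
Level of each of the 8 genes in CPM (vertical axes, linear, each panel with its own scale) in every library of the 4 groups. Each symbol is a library, and the bar beside it gives the group mean ± SD. Mog, Opalin, Olig2 and Slc6a11 in the 4 naive AP20187 libraries all lay below the 5 naive vehicle libraries, and Mobp stood at 39.3 to 56.6 CPM in 3 libraries and at 7.12 and 9.46 CPM in 2 others.

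The comparison of AP20187 with vehicle in naive mice asked whether these transcripts differed after the drug without joint surgery. Mog, Olig1 and Slc6a11 fell, and no gene of the 8 rose: 3 of 8 passed an adjusted p of 0.05, all lower. Among all 22778 genes tested, 11.2% passed in either direction and 2.57% passed as lower. The split over all genes, 1962 higher and 586 lower, differed with the scaling and with the method: it was 1550 and 915 with library size alone, 2803 and 1553 with DESeq2, and 1656 and 2423 with limma on log2(FPKM + 0.1), where the median over all genes was -0.20. The median log2 fold change was -1.09 over the 8 genes and -0.07 over all tested genes. Mog, Opalin, Olig2 and Slc6a11 had group ranges that did not overlap, all lower with AP20187, which is 4 of 8 against 6.15% of all tested genes. The 8 genes were chosen with earlier results of these data known. Their shares beside those of all genes, here and below, describe them and are no test. In bulk tissue, fewer cells of a type and less RNA per cell cannot be told apart.

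Mog, the myelin oligodendrocyte glycoprotein on the outer face of central myelin (ENSMUSG00000076439, chr17:37321635-37334290, GRCm39, minus strand), was at 0, 0.203, 0.252 and 0.389 CPM in naive mice with AP20187. In naive mice with vehicle it was at 0.588, 0.700, 0.887, 1.09 and 1.15 CPM. The mean was 0.211 ± 0.161 CPM (SD, n = 4) with AP20187 and 0.883 ± 0.243 CPM (SD, n = 5) with vehicle, and the log2 fold change was -2.05 (SE 0.64, adjusted p = 0.0443). The highest library with the drug lay below the lowest without it. In counts this is 0 to 24 against 44 to 82 per library. An entry named 7SK overlaps Mog on the opposite strand, and whether the counting used strand is not given in the sources used here.

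Olig1, a transcription factor of the oligodendrocyte lineage (ENSMUSG00000046160, chr16:91066660-91068821, GRCm39, plus strand), was at 0.173, 0.252, 0.456 and 0.988 CPM in naive mice with AP20187. With vehicle it was at 0.638, 1.09, 1.26, 1.48 and 1.53 CPM. The log2 fold change was -1.35 (SE 0.43, adjusted p = 0.0485), and 3 of the 4 libraries with the drug lay below every vehicle library, while naive AP20187 library 5 lay among them. Both calls were close to the threshold: leaving out 1 library at a time, Mog stayed past it in 2 of 9 fits and Olig1 in 2 of 9. Leave-one-out adjusted p ran from 0.0258 to 0.127 for Mog and from 0.00408 to 0.139 for Olig1.

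Opalin, a membrane protein of oligodendrocyte myelin (ENSMUSG00000050121, chr19:41050149-41065552, GRCm39, minus strand), and Olig2, the lineage factor encoded beside Olig1 and also used by motor neuron progenitors (ENSMUSG00000039830, chr16:91022345-91025565, GRCm39, plus strand), did not pass the test. Opalin was at 0, 0.0845, 0.138 and 0.227 CPM with AP20187 and at 0.242 to 0.454 CPM with vehicle in naive mice, a change of -1.54 on the log2 scale (SE 0.69, adjusted p = 0.151). Olig2 was at 0, 0.118, 0.118 and 0.138 CPM against 0.157 to 0.290 CPM, a change of -1.18 on the log2 scale (SE 0.70, adjusted p = 0.270). Neither gene's ranges overlapped, but both rest on few counts: 0 to 14 for Opalin and 0 to 8 for Olig2 in the libraries with the drug.

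Slc6a11, the GABA transporter GAT3 of astrocytes (ENSMUSG00000030307, chr6:114108202-114226913, GRCm39, plus strand), had the most counts of the 3 genes that fell. It was at 2.49, 2.72, 4.83 and 5.22 CPM in naive mice with AP20187 and at 7.04, 7.34, 7.80, 7.95 and 8.10 CPM with vehicle. The mean was 3.81 ± 1.41 CPM (SD, n = 4) against 7.65 ± 0.442 CPM (SD, n = 5), and the log2 fold change was -1.003 (SE 0.23, adjusted p = 0.0102). The groups did not overlap, and the vehicle libraries lay close together. The call held in 9 of 9 leave-one-out fits (adjusted p 0.00514 to 0.0436) and with a replicate block (0.0460). It did not hold without the 3 libraries of high Mobp described below (adjusted p = 0.0722), in the same 8 libraries as the block without a block (0.0743), or with naive AP20187 library 5 as the only one of its group (-0.64 on the log2 scale, adjusted p = 0.724), which leaves out the 3 libraries with more counts per FPKM.

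Aqp4, the water channel of astrocyte endfeet (ENSMUSG00000024411, chromosome 18), and Gfap, the astrocyte intermediate filament (ENSMUSG00000020932, chr11:102778162-102791738, GRCm39, minus strand), gave no call in naive mice. Aqp4 was at 4.97, 10.5, 12.1 and 12.9 CPM with AP20187 and at 9.84 to 17.7 CPM with vehicle, a change of -0.56 on the log2 scale (SE 0.32, adjusted p = 0.244). Gfap was at 8.16 to 14.2 CPM and 6.76 to 11.02 CPM, a change of 0.24 on the log2 scale (SE 0.25, adjusted p = 0.547). The ranges of both genes overlapped between the groups.

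Mobp, the myelin-associated oligodendrocyte basic protein (ENSMUSG00000032517, chr9:119978773-120005157, GRCm39, plus strand), gave no call, and its values spread to both sides. It lay between 17.4 and 22.4 CPM in 14 of the 19 libraries, a set picked after its values were seen. In naive mice with AP20187 it was at 7.12, 9.46, 39.3 and 53.1 CPM, so that 2 libraries lay below and 2 above all 5 naive vehicle libraries (17.6 to 22.4 CPM). The mean was 27.3 ± 22.6 CPM (SD, n = 4) against 19.3 ± 1.97 CPM (SD, n = 5), and the log2 fold change was 0.50 (SE 0.46, adjusted p = 0.478). In DMM with vehicle, library 63 was at 56.6 CPM and the other 4 at 17.4 to 19.5 CPM.

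**Figure D2:**
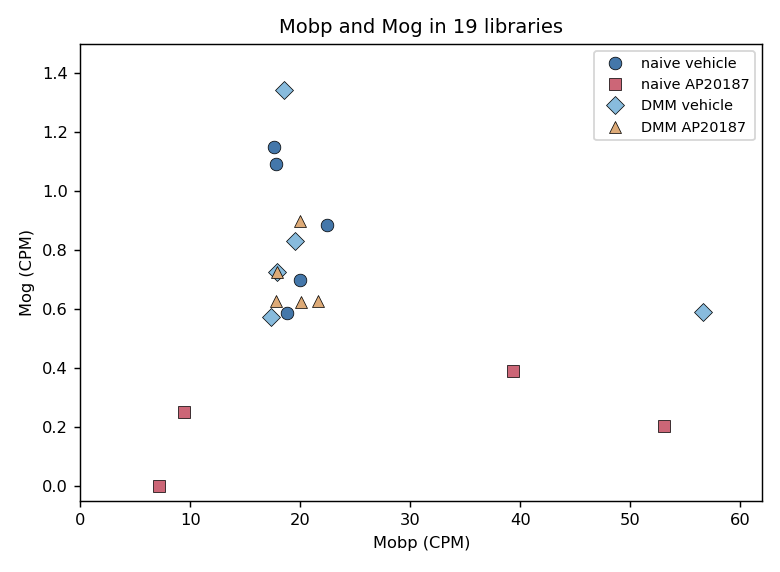
Mobp (horizontal axis, CPM, linear) against Mog (vertical axis, CPM, linear), 1 symbol per library in the 4 groups. Libraries of naive mice with AP20187 lay at 0.389 CPM of Mog or less over a Mobp range of 7.12 to 53.1 CPM, while 14 libraries shared a Mobp level of 17.4 to 22.4 CPM.

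In DMM mice, AP20187 was not followed by a call in any of the 8 genes (0 of 8, against 23.8% of all tested genes in either direction). The median log2 fold change was -0.23 over the 8 and -0.10 over all tested genes. Mog was at 0.626 to 0.899 CPM with the drug and 0.574 to 1.34 CPM with vehicle (log2 fold change -0.21, adjusted p = 0.827). Opalin (0.00), Olig1 (-0.24), Olig2 (0.12) and Gfap (-0.09) had log2 fold changes smaller than their SE. Mobp stayed at 17.8 to 21.6 CPM in the 5 libraries with the drug, and Slc6a11 was at 5.15, 5.55, 6.69, 6.80 and 7.25 CPM against 5.33, 6.48, 8.54, 8.60 and 8.69 CPM with vehicle (log2 fold change -0.26, adjusted p = 0.407).

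Aqp4 had the lowest adjusted p of the 8 genes in DMM mice. It was at 3.62, 8.35, 9.36, 10.4 and 10.7 CPM with AP20187 and at 8.10, 13.6, 14.9, 16.2 and 18.5 CPM with vehicle. The mean was 8.48 ± 2.87 CPM (SD, n = 5) against 14.3 ± 3.90 CPM (SD, n = 5), a change of -0.75 on the log2 scale (SE 0.30, adjusted p = 0.0719). Vehicle library 64 lay among the libraries with the drug, and the other 4 lay above them all. Without that library the change was -0.90 (adjusted p = 0.0244), and with vehicle libraries 32 to 34 alone it was -0.89 (0.0386). With vehicle libraries 63 and 64 alone it was -0.48 (0.548), and DESeq2 on all libraries gave -0.73 (0.0472).

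**Figure D3:**
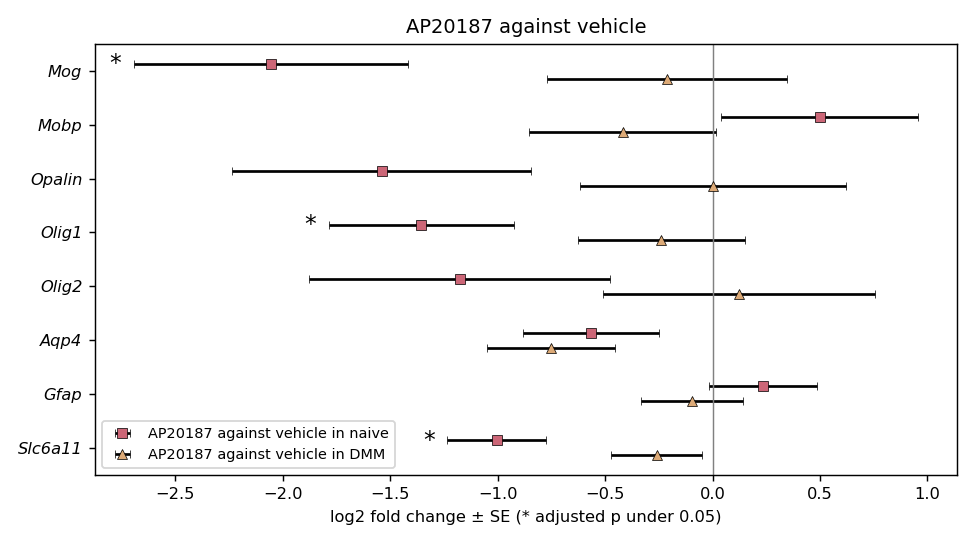
Log2 fold change of AP20187 against vehicle (horizontal axis) ± SE for the 8 genes in naive mice (squares) and DMM mice (triangles), with a star where the adjusted p was under 0.05. Stars stand at Mog, Olig1 and Slc6a11 in naive mice and at no gene in DMM mice.

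Whether the drug's effect differed between DMM and naive mice was tested as an interaction, and 0 of the 8 genes passed (0.114% of all tested genes did). The adjusted p ran from 0.567 for Slc6a11 to 0.965 for Aqp4, so the calls in naive mice are not shown to differ from the absence of calls in DMM mice. For Mog the interaction was 1.84 on the log2 scale (SE 0.83, adjusted p = 0.617). At an unadjusted p under 0.05, 2 of the 8 and 1748 of the 22778 tested genes passed.

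DMM and naive mice were compared under each treatment. With vehicle, 0 of 8 passed, as did 0% of all tested genes, and the 8 log2 fold changes ran from -0.12 for Mog to 0.43 for Mobp. For all genes, 377 had an unadjusted p under 0.05 in edgeR, none of the 8 among them, and DESeq2 and limma on FPKM called 0 genes as well, while 541 genes passed with DMM vehicle libraries 63 and 64 alone. With AP20187, 0 of 8 passed against 0.702% of all tested genes, and the median of the 8 was 0.92 against -0.01. Mog (1.72, adjusted p = 0.185), Opalin (1.52, 0.279), Olig2 (1.47, 0.302), Olig1 (1.11, 0.204) and Slc6a11 (0.72, 0.137) had positive log2 fold changes, which share the naive AP20187 libraries with the comparison above. The ranges of Mog, Opalin and Olig2 lay wholly higher in DMM, 3 of 8 against 3.46% of all tested genes.

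Other markers of central glia were read from lists that were chosen with earlier results of these data known. Shares of these lists beside those of all genes are a description and no test. Of 13 tested further genes of the oligodendrocyte lineage, 2 fell and 0 rose in naive mice with AP20187, where 2.57% of all tested genes passed as lower. The median log2 fold change of the 13 was -0.74. Among those that fell was Klk6, a protease of oligodendrocytes, which was at 0 in all 4 libraries and thus at least 4.74-fold lower than its vehicle mean of 0.239 ± 0.173 CPM (adjusted p = 0.0152). Klk6 kept its call in 9 of 9 leave-one-out fits, but not without the 3 libraries of high Mobp or with limma on log2(FPKM + 1). The 3 most abundant of the list, which peripheral cells can also express, were not called: Tspan2 was at -0.75 (adjusted p = 0.0880), Bcas1 at 0.27 and Aspa at 0.23 on the log2 scale. In DMM mice 1 of 13 fell, Tspan2 (-0.91, adjusted p = 0.0196), while 12.4% of all tested genes passed as lower there.

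Of 14 further astrocyte genes, 4 fell and 0 rose in naive mice with AP20187 (2.57% of all tested genes passed as lower), with a median of -0.48. They were Slc1a2, the main glutamate transporter of astrocytes (10.02 ± 3.10 against 21.3 ± 0.871 CPM, log2 fold change -1.09, adjusted p = 0.00176), Grin2c, an NMDA receptor subunit (0.197 ± 0.0937 against 1.80 ± 0.589 CPM, -3.17, 9.05e-05), Mlc1 (-1.20, 0.0188) and Ntsr2 (-1.23, 0.0314). Leaving out 1 library at a time, Ntsr2 kept its call in 3 of 9 fits, Mlc1 in 8 and the other 2 in 9, and none of the 4 was called without naive AP20187 libraries 1, 3 and 4. Acsbg1 (-0.41) and Slc1a3 (0.55), the other abundant ones, did not pass. In DMM mice 2 of 14 fell, Mlc1 (-1.14, adjusted p = 0.00936) and Acsbg1 (-0.93, 0.0163), a share near the 12.4% of all tested genes that passed as lower.

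Genes that peripheral glia use were counted in the same way, beside 2.57% of all tested genes lower in naive and 12.4% in DMM mice. Of 10 myelin genes shared by oligodendrocytes and Schwann cells, 0 passed in naive mice (median 0.08), with Mbp at 0.09 and Mal at 0.16 on the log2 scale. Of 8 Schwann cell myelin genes 0 passed there, with Pmp22 at -0.37 and Drp2 at 0.64. Of 8 satellite glia genes 1 fell, Ednrb (-0.91, adjusted p = 0.0173, called in 13 of 19 alternatives), and Apoe (0.29), Glul (0.22) and Fabp7 (0.53) did not pass. Of 6 microglia genes, Tmem119 and P2ry12 among them, 0 passed in either AP20187 comparison. In DMM mice the counts of genes that fell were 1 of 10 shared myelin genes (Sox10, -0.77, adjusted p = 0.0117), 5 of 8 Schwann cell genes (Pmp22, Egr2, Pmp2 and Cldn19 among them, with Egr2 called in 3 of 10 leave-one-out fits) and 2 of 8 satellite glia genes (Ednrb and Ptprz1).

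Markers of central neurons were read from 3 further lists, chosen with earlier results of these data known, so their shares are no test either. Of 9 tested genes of spinal interneurons and motor neurons, 5 fell and 0 rose in naive mice with AP20187, where 2.57% of all tested genes passed as lower. They were Gad1 (1.39 ± 0.775 against 6.25 ± 1.24 CPM, adjusted p = 0.000275) and Gad2 (0.730 ± 0.237 against 3.10 ± 0.318 CPM, 8.50e-05), which make GABA, the vesicular transporter Slc32a1 (-1.70 on the log2 scale, 0.00146), the glycine transporter Slc6a5 and the acetylcholine transporter Slc18a3. Slc6a5 and Slc18a3 were at 0 in all 4 libraries and at least 16.0-fold and 2.22-fold lower than their vehicle means. The summed level of this list was 3.31 to 6.84 CPM in the naive AP20187 libraries and 13.5 to 23.8 CPM in the other 15, with no overlap. The list's median was -1.84, or -1.70 with the genes at 0 set to their bounds. Slc5a7 (-1.84, adjusted p = 0.0812) did not pass. Lbx1, a transcription factor of dorsal spinal interneurons, had a positive value and did not pass either (0.750 ± 0.293 against 0.0646 ± 0.0472 CPM, log2 fold change 3.50, adjusted p = 0.0736).

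Of 8 cerebellar neuron genes 3 fell in naive mice with AP20187, where 2.57% of all tested genes passed as lower. They were Gabra6, at 0 in all 4 libraries and at least 19.3-fold lower, Cbln3 (-4.19, adjusted p = 1.34e-05) and Car8 (-1.34, 0.00529), while Zic1 (0.63) and Calb1 (-0.47) did not pass. Of 7 forebrain neuron genes 2 fell, Neurod6 (-2.90, 0.0163) and Neurod2 (-4.44, 0.00555), while Slc17a7 (-0.65) and Ppp1r1b (-0.47) did not pass. Without naive AP20187 libraries 1, 3 and 4, of the 10 genes of these 3 lists that fell in naive mice Slc6a5, Gabra6 and Cbln3 were called. Sensory neurons also express several of these genes, Slc17a7 and Calb1 among them. For Grin2c, Gad1, Gad2, Slc6a5, Gabra6 and Cbln3 the effect of AP20187 differed between DMM and naive mice by the interaction test (adjusted p 0.0351, 0.0433, 0.00801, 0.000335, 0.00213 and 0.00175). Leaving out 1 library at a time, Gad1 kept this call in 1 of 19 fits and Grin2c in 6 of 19, and the other 4 kept it in 19. None of the 6 was called without naive AP20187 libraries 1, 3 and 4, Slc6a5, Gabra6 and Grin2c were not called with limma on log2(FPKM + 0.1) or log2(FPKM + 1), and Cbln3 and Gad1 were not with the latter. In DMM mice, where 12.4% of all tested genes passed as lower, Pax2 was the 1 spinal gene and Car8 the 1 cerebellar gene that fell, and no forebrain gene passed.

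**Figure D4:**
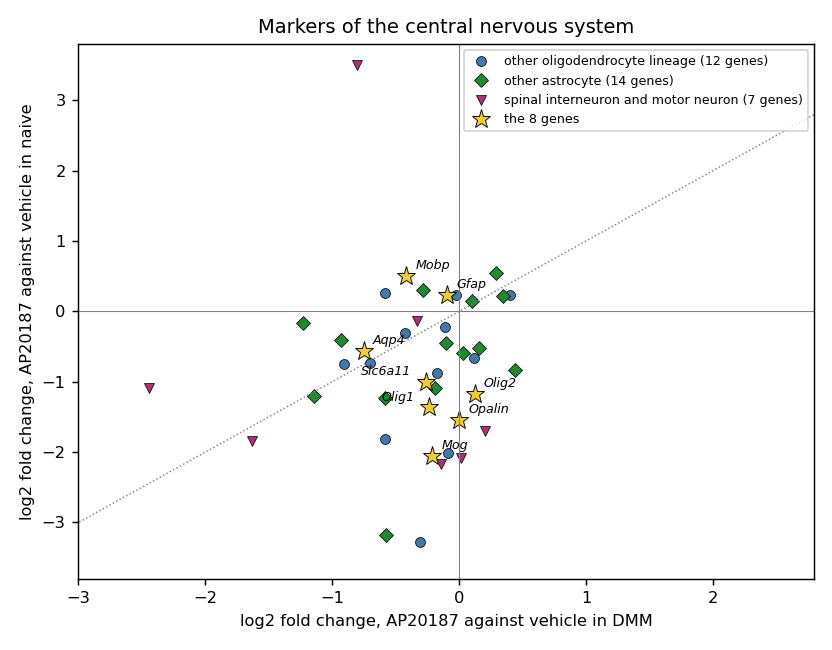
Log2 fold change of AP20187 against vehicle in DMM mice (horizontal axis) and in naive mice (vertical axis) for the 8 genes (stars) and 3 lists of central markers, with the dotted line marking equal change. Klk6, Slc6a5 and Slc18a3, at 0 in the naive AP20187 libraries, and 2 untested genes are left out. Mog, Opalin, Olig1 and Olig2 lie at -0.24 to 0.12 in DMM mice and at -2.05 to -1.18 in naive mice.

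The levels of the sensory neuron and granulocyte lists are given beside these results, in which their part was not tested. Of 8 sensory neuron genes 0 passed in naive mice, with Tubb3 at -0.90, Snap25 at -0.65 and Prph at -1.04 on the log2 scale, and 6 of 8 fell in DMM mice. Their summed level was 1088 to 5454 CPM with AP20187 and 4922 to 8114 CPM with vehicle in naive mice, and 811.4 to 3897 against 2626 to 7722 CPM in DMM mice. Of 7 granulocyte and marrow genes, led by Ngp, Ltf and S100a9, 7 rose in naive and 6 in DMM mice, where 8.61% and 11.3% of all tested genes passed as higher. Camp, 1 of the 7 in naive mice, kept its call in 3 of 9 leave-one-out fits. The naive AP20187 library with the lowest granulocyte sum, number 5 at 6798 CPM, also had the highest Mog, Opalin, Olig1, Aqp4 and Gfap of its group, and the lowest Olig2. That library also had the highest neuron sum of its group, 5454 CPM. Its relative counts per FPKM were 0.996, against 1.08 to 1.11 in the rest of the group. In 4 libraries these traits cannot be told apart.

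The lowest values of Aqp4 were in the 2 libraries with the lowest sums of sensory neuron genes, and the libraries next in that sum did not keep the order. In DMM AP20187 library 58 it was at 3.62 CPM beside a neuron sum of 811.4 CPM, and in naive AP20187 library 3 at 4.97 CPM beside 1088 CPM. In DMM AP20187 libraries 60 and 59 it was at 10.4 and 8.35 CPM beside 1966 and 1994 CPM, and in DMM vehicle library 64, the lowest vehicle library, at 8.10 CPM beside 2626 CPM. Over the wider range Aqp4 was higher where the neuron sum was higher. It was at 9.84 to 16.3 CPM beside sums of 4922 to 5566 CPM, and at 13.6 to 18.5 CPM beside 6217 to 8114 CPM. This link was not tested. Over the 19 libraries, as deviations of log2 CPM from group means, the 5 named genes most like Aqp4 among 16846 were Nrn1 (r = 0.970), C9orf72 (0.969), Nkiras1 (0.963), Fgf12 (0.958) and Glo1 (0.958). Slc6a11 had r = 0.529 with Aqp4, and Gfap -0.242. In naive AP20187 libraries 1, 3, 4 and 5, Slc6a11 was at 5.22, 2.72, 2.49 and 4.83 CPM beside neuron sums of 3216, 1088, 4513 and 5454 CPM.

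**Figure D5:**
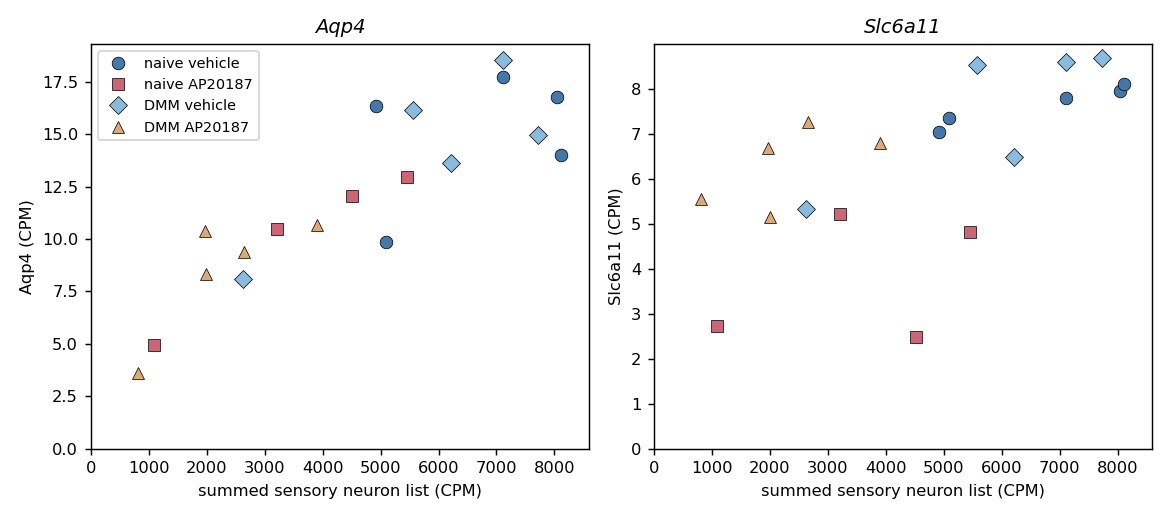
Aqp4 (left) and Slc6a11 (right) in CPM against the summed level of 8 sensory neuron genes in CPM, 1 symbol per library in the 4 groups, all axes linear. Aqp4 is lowest, at 3.62 and 4.97 CPM, in the 2 libraries with the lowest neuron sums, and all 4 naive AP20187 libraries have Slc6a11 at 5.22 CPM or less.

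By the same measure, the 5 genes most like Mobp were Rps18-ps6 (r = 0.813), Cd200 (0.751), Nlrp5-ps (0.749), Grin2a (0.741) and Slc30a2 (0.736), of which Cd200 had a mean of 74.6 CPM and the other 4 of 0.520 to 1.02 CPM. Olig1 was 28th in that order (r = 0.617) and Mog 302nd (0.443). With 14 libraries at a like level of Mobp, these coefficients describe mainly the other 5. Among the 28 pairs of the 8 genes, 0 passed an adjusted p of 0.05 by permutation. The largest by Pearson r was Mog with Olig1 (r = 0.680, Spearman rho = 0.453, n = 19, permutation p = 0.0850 and 0.102, adjusted p = 0.693 and 0.935), and without naive AP20187 libraries 1 and 5, farthest from the median in Mog, r was 0.233. The largest Spearman rho was that of Aqp4 with Slc6a11 (rho = 0.521, r = 0.529, permutation p = 0.0616 and 0.0388, adjusted p = 0.935 and 0.693), and without DMM AP20187 library 58 and naive AP20187 library 3, farthest from the median in Aqp4, r was 0.453. The median r over the 28 pairs was -0.01, with 14 positive.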

How the data were processed

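Counts per gene, as whole numbers, were deposited by the authors in a first table, and a second table of the authors gave counts with FPKM for 36682 genes. The submitters' processing notes name cutadapt, HISAT2, StringTie and the build GRCm39, and versions, settings and use of strand are not given in the sources used here. The counts tested came from the second table. The first table, of 56691 rows with 6448 lacking a gene symbol, served only to compare library totals. The totals of both tables differed by 1 count in 1 library.

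Counts were tested by edgeR's quasi-likelihood F test (edgeR 4.0.16 in R 4.3.3), two-sided, after TMM scaling and filterByExpr (minimum count 10), which kept 22778 genes. A single model of 4 groups was fitted to 19 libraries (15 residual degrees of freedom), with 5 contrasts. Adjusted p is Benjamini-Hochberg over all tested genes, with a threshold of 0.05, and the SE was derived from the F statistic. The procedure was tested on simulated data. Alternatives used DESeq2 1.42.0 and limma 3.58.1 on log2 of the deposited FPKM plus a pseudocount of 0.1 or 1. Fold changes there understate low genes.

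The 8 genes and the 11 marker lists were chosen with earlier results of these data known. Of each list the text names the 3 genes with the highest mean CPM and any gene called where 5 or fewer were called, and the 5 genes most like Mobp and Aqp4. Some genes that this rule takes are not reported here. Exact permutation tests planned for genes below the filter were not needed, since 0 of the 8 fell below it. Floors cover counting error only. Promoter sequences came from RefSeq (GRCm38.p6), and gene positions from the deposited tables.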

Additional observations from a re-analysis of the deposited data

Results flagged for a closer look

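Within groups, the highest and lowest library of each of the 8 genes was compared with the rest by its gap as a share of the group's range, in 32 groups of 4 or 5 libraries. Such a check marks about 1 group in 20 by chance, and 2 were marked here. Mobp in DMM vehicle library 63 was at 56.6 CPM, with the other 4 libraries at 17.4 to 19.5 CPM (gap 0.945 of the range, critical value 0.71). Olig2 in naive AP20187 library 5 was at 0 CPM, with the other 3 at 0.118 to 0.138 CPM (gap 0.85 of the range, critical value 0.829), where a single library of few counts decides the gap. None of the 8 genes had an interaction that passed, and 6 named list genes did: the effect of AP20187 differed between DMM and naive mice for Cbln3 (adjusted p = 0.00175), Gabra6 (0.00213), Gad1 (0.0433), Gad2 (0.00801), Grin2c (0.0351) and Slc6a5 (0.000335). Leaving out 1 library at a time, Cbln3, Gabra6, Gad2 and Slc6a5 kept this call in 19 of 19 fits, Grin2c in 6 and Gad1 in 1. None of the 6 was called without naive AP20187 libraries 1, 3 and 4, and limma on FPKM did not call Slc6a5, Gabra6 or Grin2c with either pseudocount, nor Cbln3 or Gad1 with a pseudocount of 1.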

How the results depend on the processing

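In naive mice with AP20187, 3 of the 8 genes were called. The count was 4 with DESeq2, where Opalin was added (adjusted p = 0.0218), 3 of 7 tested with limma on log2(FPKM + 0.1) and on log2(FPKM + 1), 3 with library size alone, 1 with no filter on low counts, 1 with the 2 groups alone, 1 with a replicate block (Slc6a11, with 7 of the 8 tested), 0 with the same 8 libraries and no block (added after seeing the data), 0 without naive AP20187 libraries 1, 3 and 4 (also added) and 1 to 3 without 1 library at a time. Without those 3 libraries the lone one left is assumed to vary like the other groups. Without the 3 libraries of high Mobp (added), the count was 2, and Slc6a11 and Mog lost the call (adjusted p = 0.0722 and 0.101). In DMM mice, 0 of 8 became 1, Aqp4, with vehicle libraries 32 to 34 alone, with DESeq2 and with limma on log2(FPKM + 1), and was 0 to 1 without 1 library at a time. For DMM against naive with AP20187, 0 became 1 without the 3 libraries of high Mobp, 2 with DESeq2, 3 with limma on log2(FPKM + 0.1) and 2 with limma on log2(FPKM + 1). The interaction went from 0 to 1 without the libraries of high Mobp. The gene gained without the libraries of high Mobp was Mobp itself, by whose own level they were chosen, so these counts are no test of it. The cause of the other shifts was not tested. Of the values called with all libraries, none changed sign in the alternatives run. Counts over all genes moved too: in naive mice 2548 became 4356 with DESeq2, 4079 and 3949 with limma (pseudocounts 0.1 and 1), 1388 with the same 8 libraries and no block, 809 without the libraries of high Mobp, 51 without naive AP20187 libraries 1, 3 and 4, and 994 to 3452 without 1 library at a time, while in DMM mice 5410 became 1156 with vehicle libraries 63 and 64 alone, 8450 with 32 to 34 and 3212 to 7677 without 1 library at a time. For DMM against naive with AP20187, 160 became 73 with no filter, 1109 with DESeq2, 926 and 1159 with limma, 45 without the libraries of high Mobp, 2 without naive AP20187 libraries 1, 3 and 4, and 43 to 269 without 1 library at a time. For the interaction, 26 became 13 with no filter, 224 with DESeq2, 52 with limma and a pseudocount of 1, 0 without naive AP20187 libraries 1, 3 and 4, and 12 to 57 without 1 library at a time. DMM against naive with vehicle gave 541 calls with vehicle libraries 63 and 64 alone. The replicate numbers of naive mice are not said to pair samples, so no pairing is assumed. Same-numbered libraries had correlated deviations of 0.02, 0.30, -0.08 and 0.18 (numbers 1, 3, 4 and 5). Differently numbered ones had -0.24 to 0.20, and so few values cannot decide whether the numbers pair samples. Over all genes in naive mice, a replicate block gave 2352 calls, beside 1388 in the same 8 libraries without it. The low counts of Mog, Opalin, Olig1 and Olig2 limit what can be told of them.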
